A study of Drosophila melanogaster with 2 samples.

Results

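The homeobox genes described here are 38 Drosophila genes that encode homeodomain transcription factors and lie outside the Hox and Pax groups. They were taken as a named list and make up 0.272% of the 13968 protein-coding genes of the annotation. A peak was given to one of them when its summit had its nearest protein-coding transcription start site (TSS) in that gene. The list holds 7 paired-like genes, 13 NK-like genes, 5 other Antennapedia-type genes, 3 Iroquois genes, 1 LIM gene, 2 POU genes, 2 CUT genes, 2 zinc finger homeobox genes, 2 TGIF genes and 1 gene of the sine oculis family, Six4. The data are chromatin immunoprecipitation sequencing (ChIP-seq) of Drosophila melanogaster embryos, taken whole at an age of 0 to 24 h. All embryos were of the toy-GFP strain, which carries an insertion for toy and expresses toy fused to eGFP, and chromatin was sonicated and precipitated with anti-GFP. The 2 biological replicates form 1 group, so there was no contrast between conditions, and the possible control experiment named in the labels was not analysed here. The labels do not name the promoter that drives the fusion or the cells that carry it.

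Homeodomain proteins bind DNA through a helix-turn-helix fold that commonly contacts a TAAT core, and many of them assign identity to segments, appendages, muscles and neurons. Toy, named twin of eyeless, belongs to the Pax6 type and has a paired domain beside its homeodomain, and it acts at the top of the gene network of the Drosophila eye.

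Toy-eGFP peaks passed the conservative threshold at 3 of the 38 genes. These were Distal-less (Dll), which specifies the distal parts of the limbs, zfh1, a zinc finger and homeodomain repressor of mesodermal and gonadal cells, and cut (ct), which sets the identity of external sensory organs. The conservative list, made from both replicates, holds peaks with a global irreproducible discovery rate (IDR) of at most 0.01. A low IDR marks a peak whose rank repeats between 2 peak sets. A further pair of genes outside the conservative list are shown with their sequence because their peaks passed in the pooled list of the series, which is the longer one: Awh, a LIM homeodomain gene needed for abdominal and salivary precursor cells, and the NK-like gene NK7.1. This pair was picked after its values were seen. The peaks at pdm3 and caup also passed in the pooled list alone among the series lists, but their windows hold no TAAT or ATTA and are not shown. Dll is described without its sequence.

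The sequences shown run from 100 bases before to 100 bases after each peak summit, on dm6 with bases from RefSeq Release 6, read 5′ to 3′ on the strand named. Capitals mark each TAAT or ATTA, the homeodomain core on either strand. They are shown so that the number and spacing of the cores can be read beside the peak signals. The zfh1 window is chr3R:30781662-30781862 on the plus strand, in an intron. The ct window is chrX:7618303-7618503 on the plus strand, in an intron. The Awh window is chr3L:3852013-3852213 on the plus strand, in an intron. The NK7.1 window is chr3R:14373272-14373472 on the minus strand, upstream of the gene.
zfh1: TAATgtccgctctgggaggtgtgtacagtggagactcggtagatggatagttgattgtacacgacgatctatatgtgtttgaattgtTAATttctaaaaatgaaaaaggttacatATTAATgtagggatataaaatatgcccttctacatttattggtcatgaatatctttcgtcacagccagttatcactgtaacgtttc
ct: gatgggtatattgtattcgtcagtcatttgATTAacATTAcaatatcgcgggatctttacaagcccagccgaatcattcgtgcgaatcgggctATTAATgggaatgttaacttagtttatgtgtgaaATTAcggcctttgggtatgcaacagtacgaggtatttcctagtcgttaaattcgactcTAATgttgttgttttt
Awh: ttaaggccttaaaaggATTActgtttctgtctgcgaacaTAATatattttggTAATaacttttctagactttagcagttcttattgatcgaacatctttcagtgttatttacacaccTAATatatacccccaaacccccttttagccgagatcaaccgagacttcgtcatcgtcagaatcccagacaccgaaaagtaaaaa
NK7.1: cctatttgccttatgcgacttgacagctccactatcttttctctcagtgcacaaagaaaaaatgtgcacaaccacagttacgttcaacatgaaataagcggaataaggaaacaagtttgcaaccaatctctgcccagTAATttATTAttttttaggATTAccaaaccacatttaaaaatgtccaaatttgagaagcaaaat

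The zfh1 window held 4 cores, of which a TAAT and an ATTA overlap in the run ATTAAT. The ct window held 6 cores, the Awh window 4 and the NK7.1 window 3. Over all 1402 conservative windows the median was 3 cores, 89.6% held at least 1, 45.6% held 4 or more and 20.5% held 6 or more. The Awh and NK7.1 windows are not among these, since their peaks passed in the pooled list and not in the conservative one. The 4 windows shown are not typical of the set, since 3 of the 7 series peaks at these genes, those at Dll, pdm3 and caup, held no core. Windows without a core made up 10.4% of the conservative list and 13.6% of the pooled list. The NK7.1 window alone of the 4 held a TAAT and an ATTA separated by 2 bases, the spacing at which paired-class homeodomains can bind as a pair. That arrangement, with a gap of 2 or 3 bases, was in 5.49% of all conservative windows and 4.73% of all pooled windows.

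At Dll the peak lay on chromosome 2R from 24814650 to 24814804, with its summit 88 bp upstream of the single Dll TSS and its end 18 bp short of it. Its signal, the authors' value per peak, was 202 in replicate 1, 104 in replicate 2 and 297 in the series. The series signal comes from both replicates together and is not their mean. It was the strongest peak at any of the 38 genes in the series and in both replicates. It ranked at position 102 of all 1404 peaks of the conservative list, of which 1402 lay on the chromosome arms used here. Its IDR was 2.19e-05 in the series, 1e-05 in replicate 1 and 4.42e-05 in replicate 2, and the peak was in all 4 thresholded lists. The window around its summit had a GC content of 67.2% and held no TAAT or ATTA. It held the pentamer GAGAG, the core bound by GAGA factor, which 23.8% of all conservative windows also held.

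At zfh1 the peak lay on chromosome 3R from 30781592 to 30781931. It sat in an intron 15836 bp from the 5′ end of the gene and 1496 bp upstream of the nearer of 2 annotated zfh1 start sites. The same bases also lie within the annotated gene asRNA:CR45189. The signal was 71.2 in replicate 1, 88.8 in replicate 2 and 164 in the series, which ranked at 311 in the conservative list. Both replicates passed on their own, with an IDR of 0.00243 in replicate 1 and 0.000135 in replicate 2. The IDR in the conservative ranking was 0.000266. Replicate 1 was the higher one at Dll and replicate 2 was the higher one at zfh1. A second zfh1 peak, at the start site itself, had a signal of 64.7 and an IDR of 0.0357 in the conservative ranking and so did not pass.

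At ct the peak lay on chromosome X from 7618233 to 7618572, in an intron 9255 bp from the nearest of 3 ct start sites. The signal was 37.2 in replicate 1, 37.5 in replicate 2 and 78.6 in the series. The replicates were nearly equal, but neither passed alone, with an IDR of 0.383 in replicate 1 and 0.248 in replicate 2. The series IDR was 0.00591 in the conservative ranking and 0.0124 in the pooled ranking, so the peak passed in the first list and not in the second. It was the weakest of the 3, at rank 1123 of 1404.

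Where no other list is named, ranked peaks of the series are those of the conservative ranking.

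**Figure D1:**
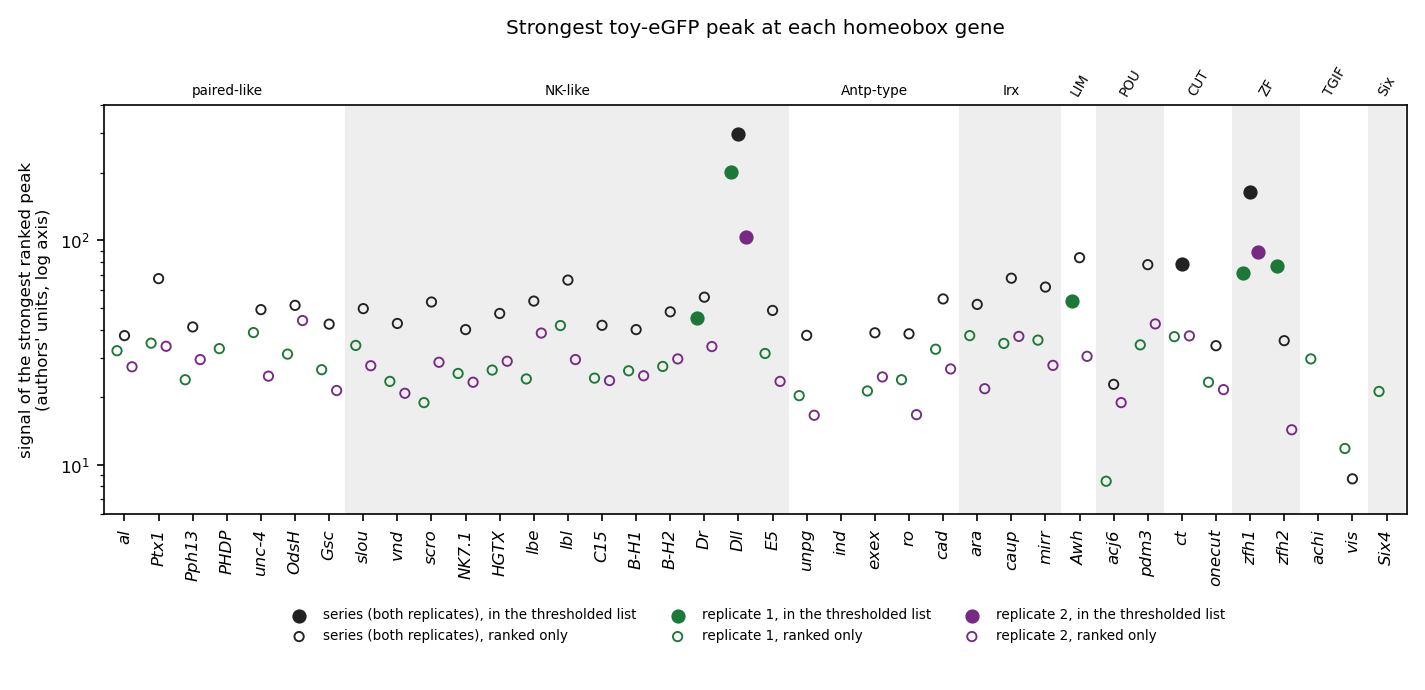
Signal of the strongest peak at each of the 38 genes (log axis, authors' units) in the conservative ranking of the series (black), replicate 1 (green) and replicate 2 (purple), grouped by class. Filled points passed the threshold of their own list. In the series only Dll at 297, zfh1 at 164 and ct at 78.6 are filled, and most other series points lie between 30 and 70.

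The count of 3 of 38 genes is 7.89% (Wilson 95% interval 2.72% to 20.8%), and 8.08% of all protein-coding genes had a conservative peak. In the pooled list 6 of 38 genes had a peak, 15.8% (7.44% to 30.4%), against 10.4% of all genes. In replicate 1 the count was 5 of 38, 13.2% (5.75% to 27.3%), against 5.49%. In replicate 2 it was 2 of 38, 5.26% (1.46% to 17.3%), against 6.47%. Each interval held the share of all genes except in replicate 1, where the background lay just below the interval. The 4 lists draw on the same 2 replicates and are not independent. The intervals cover counting error only, and genes are not biological replicates. Because whole embryos were used, binding in fewer cells and weaker binding per cell cannot be told apart at any of these genes.

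A further 6 genes had a peak in a list other than the conservative one, and 29 had none in any thresholded list. The 9 genes with a peak in at least 1 of the 4 lists are 23.7% of the 38 (13.0% to 39.2%), against 11.6% of all protein-coding genes. The surroundings of these genes are wider than those of most genes, as given with the peak densities. At Awh the peak was on chromosome 3L from 3851943 to 3852282, in an intron 5907 bp from the start site. Its signal was 53.4 in replicate 1, 27.7 in replicate 2 and 83.7 in the series, with an IDR of 0.00387, 0.278 and, in the pooled ranking, 0.00277. It passed in replicate 1 and in the pooled list, and its IDR of 0.0128 in the conservative ranking was just above the threshold. At NK7.1 the peak was on chromosome 3R from 14373202 to 14373541, 421 bp upstream of the nearest of 3 start sites. Its signal was 79.4 in the pooled list, with an IDR of 0.00257, and 25.5 in replicate 1, with an IDR of 0.154. No ranked peak of replicate 2 or of the conservative ranking overlapped it.

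The other pair of pooled peaks lay inside their genes and were higher in replicate 2. At pdm3, a POU gene that acts in olfactory neurons, the peak was on chromosome 2R from 8335960 to 8336299, in an intron 8640 bp from the start site. Its signal was 27.0 in replicate 1, 42.4 in replicate 2 and 77.9 in the pooled list. The pooled IDR was 0.00486, and the IDR was 0.458 in replicate 1, 0.0167 in replicate 2 and 0.0222 in the conservative ranking. At caupolican (caup), an Iroquois gene that prepatterns bristles and the dorsal eye, the peak was on chromosome 3L from 12616829 to 12617168, in coding sequence 7368 bp from the start site. Its signal was 25.8 in replicate 1, 37.3 in replicate 2 and 67.8 in the pooled list, with a pooled IDR of 0.00822. The IDR of the caup peak was 0.765 in replicate 1, 0.0185 in replicate 2 and 0.0333 in the conservative ranking. Both windows were rich in GC, 62.7% at pdm3 and 63.7% at caup, and held no TAAT or ATTA.

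Peaks at zfh2 and Drop (Dr) passed in replicate 1 alone. The zfh2 gene encodes a large zinc finger homeodomain protein of the wing hinge, and its peak lay on chromosome 4 from 497745 to 498060, 3907 bp upstream. The signal in replicate 1 was 76.9, with an IDR of 0.000434, and no ranked peak of replicate 2 or of either series ranking overlapped it. The peak summit was 319 bp from an annotated INE-1 transposon copy, and whether this bears on the difference between replicates was not tested. Dr is the msh gene of dorsal neuroblasts and muscles, and its peak lay on chromosome 3R from 29550841 to 29551156, 5387 bp upstream. The signal was 44.9 in replicate 1, with an IDR of 0.00908, and 8.31 in replicate 2, with an IDR of 0.929. In the series the overlapping peak had a signal of 55.8, with an IDR of 0.791 in the conservative ranking and 0.0534 in the pooled ranking.

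**Figure D2:**
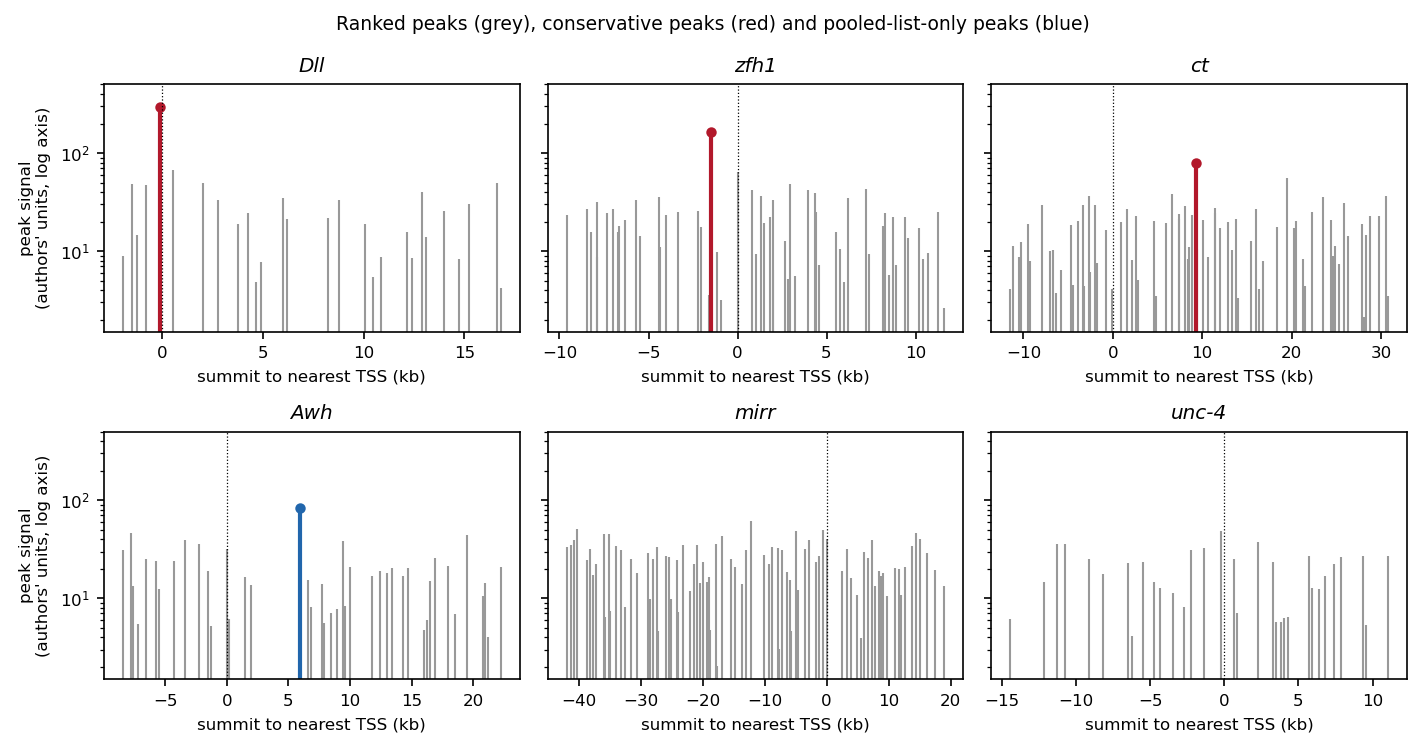
Signal (log axis, authors' units) of every peak in the conservative ranking at 6 of the genes, against the distance of its summit from the nearest start site of that gene in kb. Red peaks passed the conservative threshold (Dll at 297, zfh1 at 164, ct at 78.6), the blue Awh peak at 83.7 passed in the pooled list alone among the series lists, and grey peaks passed in neither.

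None of the 7 paired-like genes had a peak in any thresholded list, and with 7 genes this count cannot be told from the 11.6% of all genes that had one. This class is related to Pax6 in its homeodomain and includes aristaless (al), which patterns distal appendages, Pph13, which acts in photoreceptors, and Goosecoid (Gsc). Together they held 144 peaks of the conservative ranking. The strongest was at Ptx1, with a signal of 67.5 in the series and its summit 186 bp upstream of the start site. The peak overlapping it in replicate 1 had a signal of 34.8 and a summit 328 bp upstream. In replicate 2 the overlapping peak had a signal of 33.7 and a summit 185 bp upstream. The IDR was 0.0456 in replicate 1, 0.133 in replicate 2 and 0.342 in the conservative ranking. It was 0.0102 in the pooled ranking, where the Ptx1 peak just missed the threshold. At PHDP no peak was in the conservative ranking, and the strongest pooled peak, 510 bp upstream, had a signal of 69.9 and an IDR of 0.0131. OdsH and unc-4, a neuronal repressor, are neighbours on chromosome X with 62 ranked peaks between them, and the strongest were 51.3 at OdsH and 49.1 at unc-4. The strongest series peaks were 42.3 at Gsc, 41.1 at Pph13 and 37.6 at al.

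The 13 NK-like genes held 467 ranked peaks, and Dll, NK7.1 and Dr were the only ones of them with a thresholded peak in any list. With 13 genes this count cannot be told from the 11.6% of all genes that had one. Of the others, lbl, lbe, C15 and slou, lie in the NK cluster on chromosome 3R and set muscle, heart or distal leg identities. These 4 genes had 105 peaks in the conservative ranking and none in any of the 4 thresholded lists. Over all genes 1.11% of ranked peaks were in the conservative list, and 11.6% of genes had a peak in at least 1 list. With 105 peaks and 4 genes, the lack of any cannot be told from those shares. The cluster also holds tin and bap, which are not among the 38 genes, and tin had a peak in all 4 lists. The strongest peak of the 4 genes was in coding sequence of lbl, 538 bp from the start site, with a signal of 32.7 in replicate 1, 29.4 in replicate 2 and 66.5 in the series. That peak had an IDR of 0.0192 in the conservative ranking and 0.0102 in the pooled one. The strongest peak was 53.6 at lbe, 49.6 at slou and 41.8 at C15. The Bar genes B-H1 and B-H2, which act in sensory organs and the eye, had 113 ranked peaks with maxima of 40.0 and 48.0. At vnd, which defines the ventral column of the neuroectoderm, the strongest of 53 peaks had a signal of 42.6. It was 53.1 at scro, 48.7 at E5 and 47.2 at HGTX, the Nkx6 gene of motor neurons.

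The 5 remaining Antennapedia-type genes held 38 peaks of the conservative ranking in surroundings of 0.0394 Mb, which is 964 per Mb against 922 for all genes. None passed in any list, where 11.6% of all genes had a peak in at least 1. The strongest was 54.8 at caudal (cad), a posterior patterning gene, 152 bp upstream of its start site, with 32.7 in replicate 1 and 16.7 in replicate 2. The strongest was 38.7 at exex, a motor neuron gene, 38.3 at rough (ro), a photoreceptor gene, and 37.7 at unpg. The gene ind, which defines the intermediate column of the neuroectoderm, had no peak in any of the 4 ranked lists.

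The 3 Iroquois genes ara, caup and mirr form a complex of 130 kb on chromosome 3L and held 172 ranked peaks, of which none was in the conservative list. With 172 peaks this count cannot be told from the 1.11% of all ranked peaks that were in that list. The strongest signals were 51.8 at ara, 67.8 at caup and 61.9 at mirr, a gene of the dorsal eye and the ovary. A pair of caup peaks, at 67.8 and 61.9, had conservative IDR values of 0.0333 and 0.0319. In the POU class acj6, which selects olfactory receptors, had 3 peaks in the conservative ranking with a maximum of 22.8, and 10 in the pooled one with a maximum of 30.4. It had 2 in replicate 1 and 10 in replicate 2. The other POU gene, pdm3, had 74 in the conservative ranking and 79 in the pooled one. In the CUT class onecut had 6 ranked peaks with a maximum of 33.9, while ct had 73. The TGIF genes achi and vis, which act in spermatogenesis, had 2 peaks in the conservative ranking, both at vis, with a maximum of 8.64. In the pooled ranking achi had 2 and vis 4, with maxima of 52.4 and 20.9. Six4, a gene of muscle and gonad, had 1 ranked peak, in replicate 1, with a signal of 21.2.

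The genes of this list have wide surroundings. The stretch in which a base is nearer to a gene's own start sites than to those of any other protein-coding gene had a median of 21.0 kb here, from 2.02 kb at PHDP to 195 kb at scro, against 4.25 kb for all genes. In all, these stretches came to 1.11 Mb, or 0.806% of the total. Conservative peaks numbered 2.71 per Mb in them, against 10.2 per Mb for all genes. The density was 5.41 against 13.7 per Mb in the pooled list, 4.51 against 6.72 in replicate 1 and 1.80 against 7.75 in replicate 2. The density of ranked peaks, most of which did not pass, was 980 against 922 per Mb in the conservative ranking. So the density of ranked peaks in the conservative ranking was close to that of all genes. The density of peaks that passed was numerically lower in all 4 lists. It rests on 3, 6, 5 and 2 peaks of these genes, in the order given, and carries no interval. It is therefore not read as a difference from all genes. Per gene, the conservative share was 7.89% against 8.08%. Promoters, defined below, held 53.5% of all conservative peaks. The part of the wide surroundings in the lower densities was not tested.

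The peaks that passed were also compared as a share of the ranked peaks. Of 1087 ranked peaks at these genes, 3 were in the conservative list, 0.276% (0.0939% to 0.808%), against 1.11% of all ranked peaks. In the pooled list the share was 0.502% (0.230% to 1.09%) against 1.32%. It was 0.835% (0.357% to 1.94%) against 1.15% in replicate 1, and 0.204% (0.0560% to 0.741%) against 0.944% in replicate 2. The interval lay below the share of all peaks in 3 of the 4 lists, and in replicate 1 it held that share. Of the genes with at least 20 ranked peaks, 17.9% of 1780 had a conservative peak, and 3 of the 24 homeobox genes among them did, 12.5% (4.34% to 31.0%). The median signal of ranked peaks was 19.2 at these genes and 19.5 overall. The strongest ranked peak per gene had a median of 48.9 over the 34 homeobox genes with one, and 40.0 over 11541 genes. These maxima were taken over unequal numbers of peaks, since the median number of ranked peaks per gene was 24.5 here and 4.0 over all genes. They therefore do not show stronger peaks at the homeobox genes.

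The ranked peaks at these genes lay farther from start sites than others. Their median distance was 7977 bp, with quartiles of 3435 and 16014 bp, against a median of 3672 bp for all ranked peaks and 488 bp for all conservative ones. Promoters, taken as 500 bp to either side of a start site, held 6.07% of them against 14.5% of all ranked peaks, and intergenic sequence held 43.3% against 24.4%. Introns held nearly equal shares, 38.5% and 37.9%. Since ranked peaks at promoters passed more often than others, the shares were also taken by location. At promoters 1 of 66 passed, 1.52% (0.268% to 8.10%), against 4.07% of all. In introns 2 of 419 passed, 0.477% (0.131% to 1.72%), against 0.963%. In intergenic sequence 0 of 471 passed, which allows a share of up to 0.637%, against 0.515%. In coding sequence 0 of 97 passed, which allows up to 3.09%, against 0.0369%. Outside promoters as a whole the share was 0.196% (0.0537% to 0.711%) against 0.601%. At each location the share of all genes lay within what the counts at the homeobox genes allow.

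**Figure D3:**
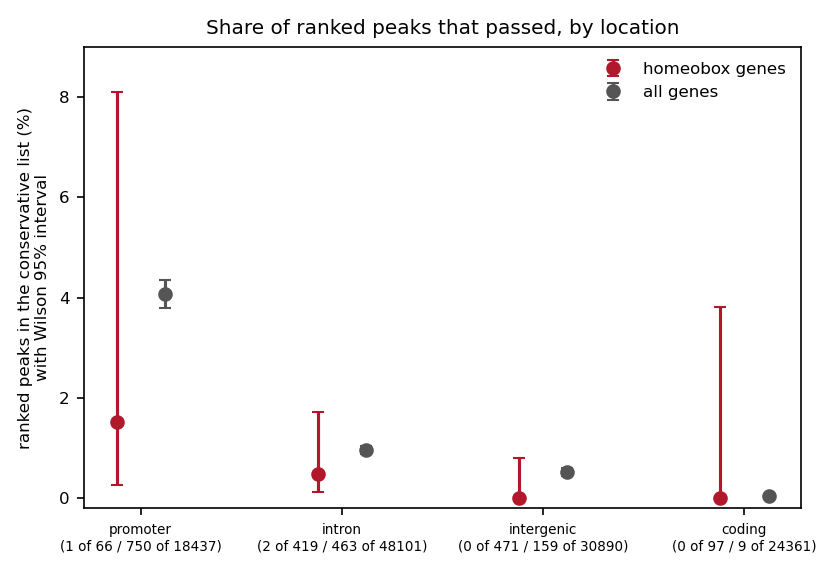
Percent of peaks in the conservative ranking that passed the conservative threshold, by location, for the homeobox genes (red) and all genes (grey), with Wilson 95% intervals as bars and the counts under each pair. The red intervals at promoters (0.268% to 8.10%), introns and intergenic sequence hold the grey values.

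The number of ranked peaks at these genes differed between the replicates, with 599 in replicate 1 and 980 in replicate 2. Over all genes the numbers were 80746 and 112917, so the ratio of replicate 2 to replicate 1 was 1.64 here and 1.40 overall. More peaks were in replicate 2 at 29 of the genes, more in replicate 1 at 7, and the numbers were equal at 2. The widest gap was at scro, a brain gene of the NK-like class, with 17 peaks in replicate 1 and 93 in replicate 2, and pdm3 had 33 and 84. On fewer peaks, the ratio was 5.0 at acj6 and 3.86 at E5, against 2.55 at pdm3. Without scro and pdm3, which were picked after their values were seen, the ratio was 1.46. The order was the opposite at zfh2, with 25 in replicate 1 and 3 in replicate 2, and at NK7.1, with 13 and 3. In replicate 1, 3 of the 25 zfh2 summits lay in annotated transposons, 12%, against 0.835% of all summits of that replicate. The zfh2 gene is on chromosome 4, and the share for that chromosome alone was not taken. At scro 1 of 93 summits of replicate 2 lay in an annotated transposon, 1.08%, against 1.65% of all summits of that replicate. The part of transposons in these gaps was not tested.

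**Figure D4:**
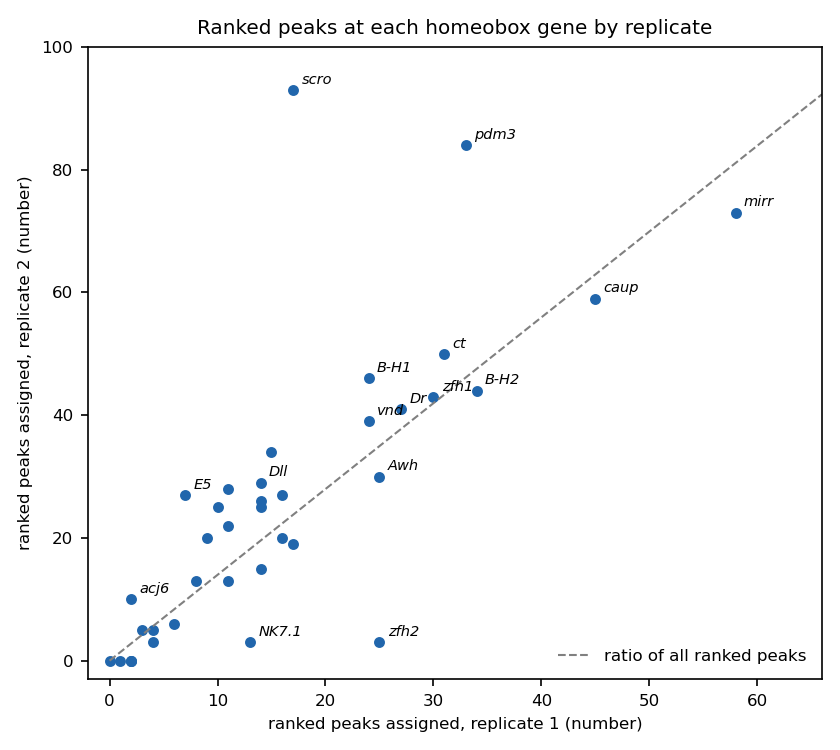
Number of ranked peaks assigned to each of the 38 genes in replicate 1 (x axis) and replicate 2 (y axis), with a dashed line at the ratio of 1.40 found over all genes. The points of scro (17 and 93) and pdm3 (33 and 84) lie farthest above the line. Other genes, such as E5 (7 and 27) and acj6 (2 and 10), also lie above it, and zfh2 (25 and 3) and NK7.1 (13 and 3) lie below it.

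Sequence motifs were searched on both strands of the summit windows. The palindrome TAATTA, in which the TAAT and ATTA cores overlap, was in none of the 3 conservative windows of these genes and none of the 6 pooled ones, and in 15.8% of all conservative windows and 15.2% of all pooled ones. With so few windows, this absence cannot be told from those shares. The pooled windows of these genes also had a higher GC content, 49.8% against 36.8%. In the ranked windows it was in 139 of 1087, 12.8%, against 9.54% of all. The TAAT and ATTA pair with a gap of 2 or 3 bases was in 25 of the 1087, 2.30%, against 1.82%. GAGAG was in 3 of the 6 pooled windows, those of Dll, NK7.1 and caup, against 24.8% of all pooled windows, and in 26.2% against 23.6% of the ranked ones. The core of the Pax6 paired-domain site was in 0 of the 1087 windows, which allows up to 0.276%, against 0.0859% of all ranked windows and 0.143% of all conservative ones. TATCGATA, the DREF site, was in none of the 3 conservative windows and in 2.21% of all. CAGGTAG, the Zelda site, was likewise in none of the 3 and in 0.571% of all. With 3 windows, neither absence can be told from the share of all windows.

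A further 51 homeobox genes outside this list, among them Hox and Pax genes, were counted in the same way. Conservative peaks were at 7 of them, 13.7%, against 8.08% of all protein-coding genes. No interval was taken for this share, so it is not read as a difference from all genes. Of their 1758 ranked peaks 9 passed, 0.512%, against 1.11% of all ranked peaks. The strongest at each was 180 at tin, 136 at hth, 106 at vvl, 100 at otp, 94.8 at en, 81.7 at ey and 72.5 at abd-A. The Dll peak at 297 was above all of these, zfh1 at 164 lay between tin and hth, and ct at 78.6 lay between ey and abd-A. The passing share of 0.276% in the genes described here had an interval that held 0.512%, so the counts could not separate the groups.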

How the data were processed

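Peak lists from toy-eGFP ChIP-seq of 2 biological replicates were used as deposited. Of 8 lists, 4 are thresholded and 4 ranked, for replicate 1, replicate 2 and, pooled and conservative, the series. The labels give dm6 as the build, and the names of the lists give an IDR procedure. Aligner and caller: not given in the sources used here. Every deposited peak carries the authors' signal, whose scaling is likewise not given, and the authors' −log10 of the global IDR. That value is in column 12 of the ranked lists, and not in column 9 as first planned, and was joined to the thresholded peaks by coordinates. In each of 2 ranked series lists, 8 further columns, 16 in all, were not assigned to a replicate and stayed unused.

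Each summit on 7 chromosome arms was assigned by its nearest protein-coding TSS (Ensembl release 115 annotation), measured in bp. For locations, any non-transposon gene's TSS counted as a promoter. RefSeq bases matched this annotation: 99.9% of 15182 plus-strand start codons read ATG. Shares carry Wilson 95% intervals (Python 3.11.15, pandas 2.3.3, scipy 1.17.1), which cover counting error only. A count of 0 allows up to 3 counts. Depth is unknown, since peak lists hold none, so precision is given by peak counts. Peaks and genes are not biological replicates, and agreement between replicates measures only the spread between these 2 samples. No test between conditions was possible with 1 group. The counting and motif routines were tested on simulated data.

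Position, signal and IDR are given for every gene with a thresholded peak, and the strongest ranked peak for the others. Members and lists were chosen with earlier results of these data known. The TAAT core counts, the group with 20 or more ranked peaks, the passing shares by location, the count over any of the 4 lists and the Awh and NK7.1 sequences were added after the data were seen.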

Additional observations from a re-analysis of the deposited data

How the results depend on the processing

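The number of homeobox genes with a peak, equal to the number of their peaks, was 3 in the conservative list and 6 in the pooled list, and 2 to 5 when 1 replicate was left out. Peaks per Mb were 2.71 in the conservative list, 5.41 in the pooled list and 1.80 to 4.51 with 1 replicate left out. The passing share of ranked peaks was 0.276%, 0.502% in the pooled list and 0.204% to 0.835% with 1 replicate left out. The median signal of the peaks was 164, and 81.5 in the pooled list. Of the other 51 homeobox genes 7 had a peak, 4 to 6 with 1 replicate left out and 2 at an IDR of at most 0.001. The last alternatives for the 51 genes and for the passing share were chosen after seeing the data, and the cause of these shifts was not tested. An IDR of at most 0.001, a distance limit of 5 kb, start sites of any biotype and assignment by gene body gave 2 or 3 genes. By gene body, NK7.1 in place of Dll made the third gene, with a peak of signal 83.8 nearer to the start site of Dnaaf5. Windows of 50 or 200 bases to either side of the summit also gave no TAATTA at the 3 conservative peaks. With 3 peaks, no share among them is precise, and unknown read depth limits every comparison of the replicates. No paired analysis was possible because both replicates belong to 1 group.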
